A study of Mus musculus with 6 samples.

Results

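A set of 38 nuclear genes was followed that take fatty acids into cells, burn them in mitochondria and feed and run the TCA (tricarboxylic acid) cycle. The members were taken by gene symbol from a fixed list, and 38 of 38 had a row among the 12560 genes of the deposited table. They fall into 21 genes of fatty acid uptake and oxidation and 17 genes of pyruvate dehydrogenase and the TCA cycle. The samples were RNA sequencing libraries labelled as mouse chondrocytes, the cells of cartilage, with 3 libraries from control mice and 3 from Eldr cKO mice, Eldr being a long noncoding RNA. Strain, age, the Cre driver and any allele carried by the controls are not given in the sources used here. The labels do not say whether each library is its own animal or culture, so p-values reflect how these libraries vary, and that variation may be technical. Eldr was not analysed here, and the genotype labels could not be checked on its level. Values are given in the order of replicates 1, 2 and 3.

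Fatty acids reach cells as lipoprotein triglycerides or bound to albumin, are activated to acyl-CoA, cross the inner mitochondrial membrane as carnitine esters and are shortened stepwise by beta-oxidation to acetyl-CoA. Acetyl-CoA also comes from pyruvate through the pyruvate dehydrogenase complex, and the TCA cycle oxidises it to carbon dioxide while loading electron carriers for respiration. Heart muscle is known for drawing most of its energy from fatty acids, whereas cartilage cells live with little oxygen and rely largely on glycolysis.

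The libraries were shallow and unlike in content, and the cartilage label was not borne out by its defining markers. Depth, estimated from the steps that single fragments leave in FPKM (fragments scaled to transcript length and to the mapped fragments of the library), lay between 52354 and 464289 fragments. At these depths 1 fragment on a transcript of 2 kb corresponded to 1.077 FPKM in the deepest library, control 1, and to 9.55 FPKM in the shallowest, Eldr cKO 2. Transcripts of the mitochondrial genome took 68.0%, 70.0% and 41.1% of the summed FPKM in controls and 43.6%, 33.9% and 33.8% in Eldr cKO. Another 12 predicted genes in repeat-rich sequence took 3.07%, 12.9% and 13.4% in controls and 3.84%, 48.8% and 46.2% in Eldr cKO. Eldr cKO 2 and 3 thus had the largest repeat-rich shares and were also the shallowest libraries. Of 14 cartilage markers 5 had a row, and their summed level was 0.616 to 4.20 FPKM in the controls and 1.91 to 12.5 FPKM in Eldr cKO. These were Comp, Sox9, Col11a1, Hapln1 and Cnmd, and none of the 5 was above 0 in all 6 libraries. All 12 heart muscle markers had a row, 10 of them being above 0 in every one of the 6 libraries. Of 12 markers of fast skeletal muscle 3 had a row. Ckm and Acta1, which heart muscle also expresses, were above 0 in all 6 libraries, and Tnnt3 was above 0 in control 1 alone.

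Some promoters of the set are shown because they bear on how its members lie in the genome. Hadha and Hadhb encode the alpha and beta subunits of the mitochondrial trifunctional protein, and they lie head to head on GRCm38 chromosome 5, with 86 bp between their positions in the deposited table. RefSeq (GRCm38.p6) places their starts 273 bp apart, so the window from 250 bases before to 50 after the start of Hadhb (chr5:30155003-30155302, plus strand) shares 228 bases, printed in capitals, with the window of Hadha.
Hadhb: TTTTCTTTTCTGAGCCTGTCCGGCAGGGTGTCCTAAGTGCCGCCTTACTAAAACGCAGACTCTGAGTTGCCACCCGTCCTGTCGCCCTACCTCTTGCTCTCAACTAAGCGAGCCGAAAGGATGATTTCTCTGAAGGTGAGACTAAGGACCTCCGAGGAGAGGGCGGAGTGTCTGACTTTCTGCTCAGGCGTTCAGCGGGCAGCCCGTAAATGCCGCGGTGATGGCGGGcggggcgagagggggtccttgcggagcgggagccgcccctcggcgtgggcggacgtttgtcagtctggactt

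RefSeq windows were used for 33 of the 38 members, 41 windows in all. No window of Lpl, Cpt1b, Acaa2, Decr1 or Idh3a was used here. Both strands were searched for the letters of 3 motifs tied to mitochondrial genes. That of NRF1, a nuclear respiratory factor, was GCGCA followed by 1 base of any kind and GCGC; that of estrogen-related receptors (ERR) was TNAAGGTCA; and that of PPAR receptors was AGGTCA repeated after 1 base of any kind, so that AGGTCA lies within the ERR letters too. The NRF1 letters stood in 2 of 20 fatty acid windows and 2 of 21 pyruvate and TCA windows, against 4.6% of the 32851 windows searched. The ERR letters (1.28% of the windows searched) and the PPAR letters (0.0396%) stood in 0 of the 41. The stretches with the NRF1 letters in capitals, each 5′ to 3′ on the strand of its gene (minus for Etfdh and Dld, plus for Etfb and Sucla2), are those of Etfdh (chr3:79628871-79628910), Etfb (chr7:43444046-43444085), Dld (chr12:31351422-31351447) and Sucla2 (chr14:73552754-73552793).
Etfdh: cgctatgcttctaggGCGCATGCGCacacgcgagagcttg
Etfb: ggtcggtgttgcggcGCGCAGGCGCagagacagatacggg
Dld: gatgacgtatatgttGCGCAGGCGCa
Sucla2: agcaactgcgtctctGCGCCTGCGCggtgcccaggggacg
At Sucla2 the letters read on the opposite strand. The window of Sucla2 lies inside its deposited position (73525319 to 73596142) and not at the start of it. These matches describe letters and not binding. The values of the 4 genes follow under their roles.

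No member passed the test between genotypes. The test was limma on log2(FPKM + 1) over the 9007 genes averaging 1 FPKM or more, with Benjamini-Hochberg adjustment, and 38 of 38 members were among the genes tested. At an adjusted p under 0.05 it called 0 of the 38 members and 0% of all genes tested. An unadjusted p under 0.05 was found for 1 of 38 members, Mdh1, which was lower in Eldr cKO; over all genes tested the share was 1.5% in either direction and 1.04% lower. By the authors' deposited table, 0 of the 38 members and 249 of all 12560 genes had a p under 0.05. The values of both groups overlapped for each of the 38 members, whereas 3.94% of the genes tested had groups that did not overlap.

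Control 1 and Eldr cKO 1, the deepest libraries, held most of the highest values. Of the 38, 26 had their highest level in control 1, 9 in Eldr cKO 1 and 3 in another library; over all genes tested, 16.8% were highest in control 1 and 27.7% in Eldr cKO 1. The 3 exceptions were Lpl, highest in Eldr cKO 2, Slc25a20, highest in Eldr cKO 3, and Echs1, highest in control 3. Above 0 in all 6 libraries were 19 of 38 members, against 17.3% of the genes tested. Listed at 0 were 0, 8 and 4 members in control 1, 2 and 3 and 0, 14 and 9 members in Eldr cKO 1, 2 and 3. Estimated from the longest annotated transcript, a member stood at the median on 70.5, 2.57 and 3.17 fragments in the controls and on 23.8, 0.722 and 1.84 fragments in Eldr cKO. Median values under 1 fragment show that these estimates are rough, and fewer than 10 estimated fragments stood behind 34 members in control 2, 33 in control 3, 35 in Eldr cKO 2 and 34 in Eldr cKO 3.

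**Figure D1:**
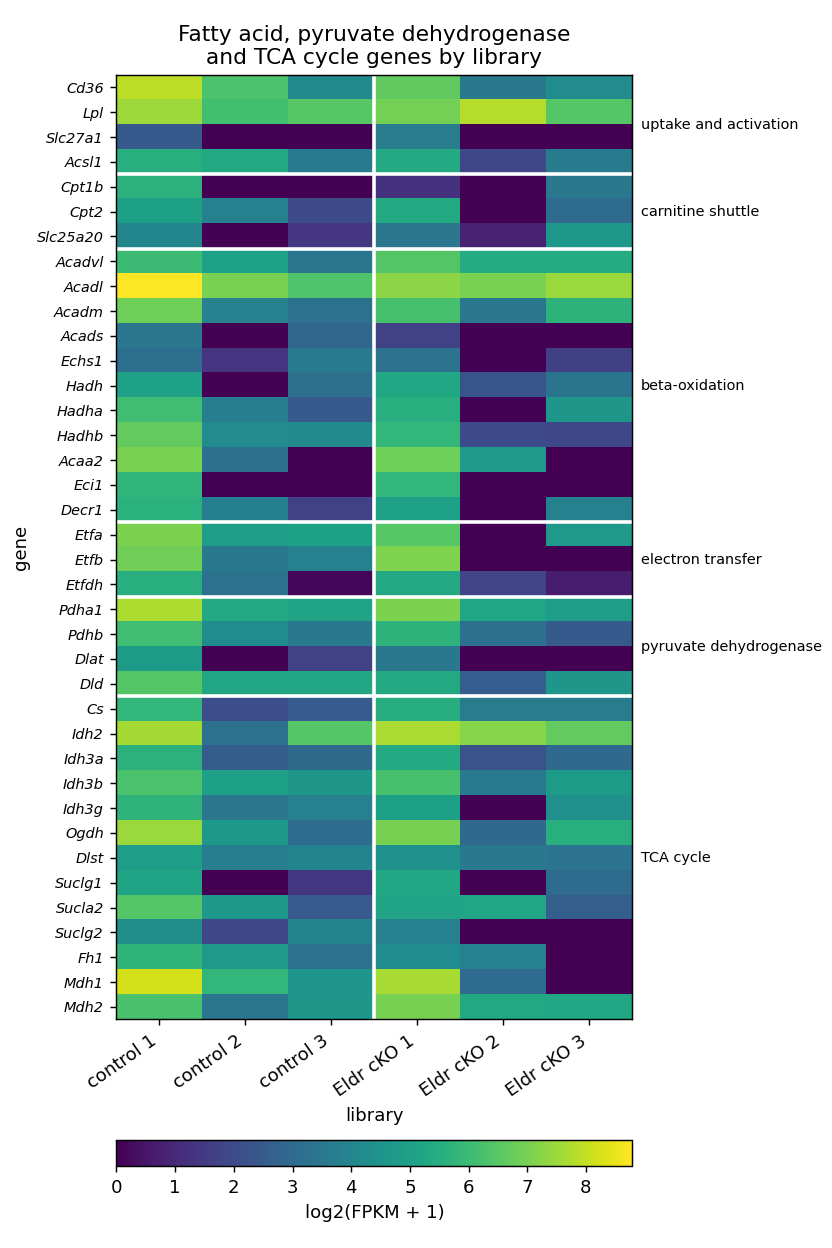
Colour gives log2(FPKM + 1) for each of the 38 genes (vertical axis, grouped by role) in each of the 6 libraries (horizontal axis). The columns of control 1 and Eldr cKO 1 are the brightest, with 26 and 9 of the 38 genes at their highest there, and the darkest cells are values listed at 0.

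The summed level of the set was set against nuclear FPKM, which here means the FPKM of all rows outside the mitochondrial genome and the 12 repeat-rich genes. The fatty acid members took 1.54%, 0.748% and 0.254% of nuclear FPKM in controls, against 0.849%, 0.651% and 0.612% in Eldr cKO. The means were 0.847% ± 0.648 (SD, n = 3) in control and 0.704% ± 0.127 (SD, n = 3) in Eldr cKO. The Eldr cKO values lay within the range of the controls, which spanned a factor of 6.06. The pyruvate dehydrogenase and TCA members took 1.27%, 0.487% and 0.257% in controls, against 0.809%, 0.483% and 0.403% in Eldr cKO, again with the Eldr cKO values inside the control range.

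With all rows as the denominator the differences between the means (Eldr cKO minus control, fatty acid and then pyruvate and TCA members) were -0.0025 and 0.0072 percentage points. The heart muscle markers were likewise highest in control 1, then Eldr cKO 1 and control 2, and lowest in control 3. Their share of nuclear FPKM was 7.62%, 3.74% and 0.795% in controls, against 5.80%, 2.81% and 2.83% in Eldr cKO. Relative to the summed heart markers, the fatty acid members stood at 20.2%, 20.0% and 32.0% in the controls and at 14.6%, 23.2% and 21.6% in Eldr cKO. As highest over lowest, this spread was narrower than that of the share of nuclear FPKM in the controls and wider in Eldr cKO. The pyruvate and TCA members stood at 16.7%, 13% and 32.3% of the heart marker sum in the controls and at 13.9%, 17.2% and 14.2% in Eldr cKO. The part of heart muscle content in the levels of the set was not tested, and in such bulk samples fewer cells of a type and less RNA per cell cannot be told apart. Adipocyte markers, of which 8 of 10 had a row, summed to 8.51 to 169 FPKM in the controls and 9.45 to 84.7 FPKM in Eldr cKO. Only Fabp4 among them was above 0 in all 6 libraries. The other 7 were each above 0 in control 1, Eldr cKO 1 or both, and Cidea in Eldr cKO 3 too, and were otherwise listed at 0. Endothelial markers (8 of 8 with a row, 1 above 0 in all 6 libraries) summed to 19.7 to 98.8 FPKM in the controls and 20.3 to 101 FPKM in Eldr cKO. Macrophage markers (8 of 8 with a row, 2 above 0 in all 6 libraries) summed to 116 to 289 FPKM in the controls and 300 to 390 FPKM in Eldr cKO, so that the groups did not overlap in summed FPKM. As a share of nuclear FPKM the macrophage markers stood at 0.2034%, 0.455% and 0.0924% in controls and 0.2025%, 0.561% and 0.430% in Eldr cKO, and the groups overlapped. Their part in the results was not tested either.

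**Figure D2:**
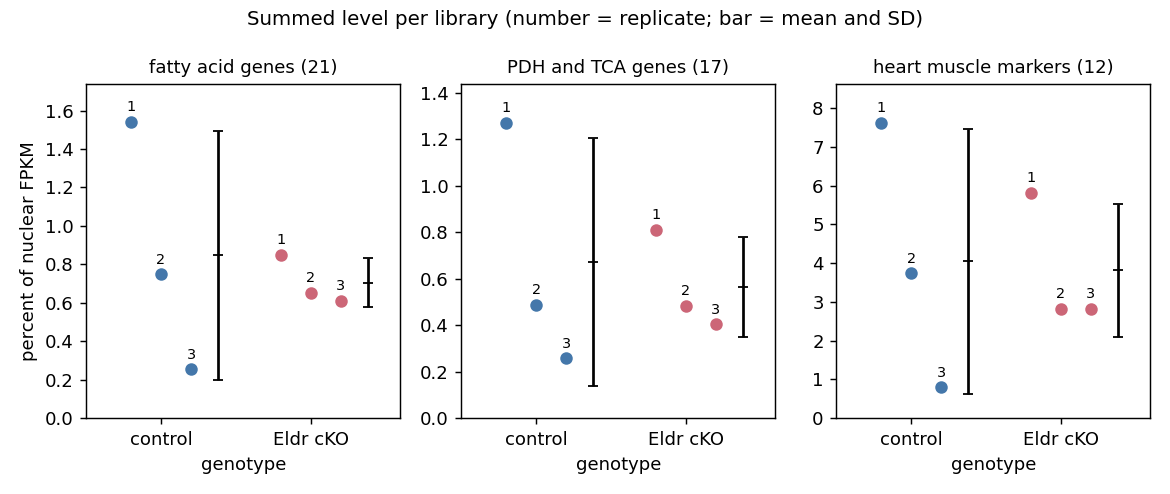
Points are libraries (number = replicate) and give the percent of nuclear FPKM (vertical axis, from 0) taken by the 21 fatty acid genes, the 17 pyruvate dehydrogenase (PDH) and TCA genes and the 12 heart muscle markers in each genotype; the bar is the mean and SD over 3 libraries. In each panel control 1 is highest, control 3 lowest, and the 3 Eldr cKO libraries lie inside the range of the controls.

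Genes of fatty acid uptake and activation gave the most evenly detected start of the pathway, with 3 of 4 above 0 in all 6 libraries. Lpl, lipoprotein lipase, frees fatty acids from circulating triglycerides (GRCm38 chromosome 8, 68880491 to 68907448). It stood at 181, 68.7 and 89.5 FPKM in controls against 123, 223 and 87.2 FPKM in Eldr cKO libraries; its log2 fold change was 0.37 (SE 1.07) on the log2(FPKM + 1) scale. The range of the Eldr cKO values enclosed 2 of the 3 controls, and without Eldr cKO 2 the change was -0.00095. Cd36, a fatty acid translocase of the cell surface, stood at 241, 77.7 and 17.4 FPKM in controls against 99.9, 10.6 and 17.7 FPKM in Eldr cKO libraries (log2 fold change -1.33, SE 1.19). Control 3 was as low as Eldr cKO 3, so the groups overlapped. Acsl1, the main long-chain acyl-CoA synthetase of heart and fat, stood at 45.7, 39.0 and 11.3 FPKM in controls against 40.8, 2.65 and 11.5 FPKM in Eldr cKO libraries (log2 fold change -1.20, SE 1.28). Eldr cKO 2 was the low library, and the other values of both groups interleaved. Slc27a1, the transport protein FATP, reached 4.64 FPKM in control 1, 11.9 FPKM in Eldr cKO 1 and was listed at 0 elsewhere. Lpl made up 94.4% of the summed FPKM of the 4 genes in Eldr cKO 2, whereas Cd36 made up 51.1% in control 1.

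The carnitine shuttle was the sparsest step, with 0 of 3 genes above 0 in all 6 libraries. Cpt1b, the muscle form of the carnitine palmitoyltransferase that commits fatty acids to mitochondria, stood at 49.8, 0 and 0 FPKM in controls against 1.38, 0 and 10.5 FPKM in Eldr cKO libraries. Cpt1b shares 81.4% of its exonic bases with Gm44502, an annotated gene on the same strand, so its reads may have been split. Gm44502 had no row in the deposited table, and such a split was not tested. Cpt2, the enzyme that reforms acyl-CoA inside, stood at 30.8, 13.6 and 3.11 FPKM in controls against 40.9, 0 and 7.50 FPKM in Eldr cKO libraries. Slc25a20, the carnitine-acylcarnitine translocase, stood at 15.5, 0 and 1.64 FPKM in controls against 10.3, 0.741 and 24.6 FPKM in Eldr cKO libraries. Their highest values came from 3 different libraries, and the groups overlapped. Their log2 fold changes were -0.30 (SE 1.39), -0.81 (SE 1.34) and 1.18 (SE 1.38) in the order named, those of Cpt1b and Cpt2 turning to 0.50 and 0.60 without Eldr cKO 2, and that of Cpt1b to 1.59 without control 1.

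Among the enzymes of beta-oxidation, Acadl stood out in level in each library. It encodes the long-chain acyl-CoA dehydrogenase (GRCm38 chromosome 1, 66830839 to 66863277), an enzyme known to be prominent in rodent heart. Acadl stood at 442, 129 and 81.2 FPKM in controls against 151, 130 and 176 FPKM in Eldr cKO libraries. It made up 22.9% to 60.9% of the summed FPKM of the 11 beta-oxidation genes over the 6 libraries. The log2 fold change was -0.14 (SE 1.03) and turned to 0.56 without control 1, the library with the highest value. Acadvl, the very-long-chain dehydrogenase, stood at 63.4, 31.6 and 9.96 FPKM in controls against 84.9, 41.7 and 41.3 FPKM in Eldr cKO libraries (log2 fold change 0.92, SE 1.21). The 3 Eldr cKO values were above those of 2 controls, while control 1 lay among them. Dvl2 on the opposite strand shares 42.9% of the exonic bases of Acadvl and was listed at most at 2.17 FPKM. Acadm, the medium-chain dehydrogenase, stood at 114, 13.99 and 8.63 FPKM in controls against 74.4, 9.83 and 49.8 FPKM in Eldr cKO libraries. Acads, the short-chain dehydrogenase, was above 0 in 3 libraries and reached 10.2 FPKM at most. Control 1 and Eldr cKO 1 held the highest values of Acadm, and the log2 difference of Acadl over Acadm ranged from 1.01 in Eldr cKO 1 to 3.59 in Eldr cKO 2.

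Of the enzymes of the later steps and of unsaturated fatty acids, Acaa2, Eci1, Decr1 and Hadh were highest in control 1 or Eldr cKO 1, and Echs1 was highest in control 3. Acaa2, the thiolase that releases acetyl-CoA, stood at 128, 8.30 and 0 FPKM in controls against 115, 25.1 and 0 FPKM in Eldr cKO libraries (log2 fold change 0.44, SE 1.32). It was thus high in control 1 and Eldr cKO 1 and listed at 0 in control 3 and Eldr cKO 3. Eci1, an isomerase for unsaturated fatty acids, reached 53.6 FPKM in control 1, was close to that in Eldr cKO 1 (56.0 FPKM) and was listed at 0 in the other 4 libraries. Decr1, the dienoyl-CoA reductase, ranged from 0 to 48.2 FPKM, Hadh, the short-chain hydroxyacyl-CoA dehydrogenase, from 0 to 36.5 FPKM, and Echs1, the short-chain enoyl-CoA hydratase, from 0 to 11.4 FPKM. Their log2 fold changes of -0.75, 0.86 and -1.04 were smaller than their SEs.

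Both subunits of the trifunctional protein, whose shared promoter stretch is printed above, kept close levels in 3 libraries and lay further apart in the other 3. Hadha stood at 66.8, 12.5 and 4.65 FPKM in controls against 44.1, 0 and 23.9 FPKM in Eldr cKO libraries. Hadhb stood at 102, 17.9 and 17.4 FPKM in controls against 55.7, 2.90 and 2.72 FPKM in Eldr cKO libraries. On the log2(FPKM + 1) scale Hadha minus Hadhb was -0.61, -0.48 and -1.70 across controls, -0.33 and -1.96 for Eldr cKO 1 and 2, and 2.74 for Eldr cKO 3. In Eldr cKO 2 and 3 each of these values rests on at most 5.38 estimated fragments. The log2 fold changes were -0.73 (SE 1.32) for Hadha, which turned to 0.95 without Eldr cKO 2 and to 0.25 without control 1, and -1.82 (SE 1.29) for Hadhb, which ran from -3.11 without Eldr cKO 1 to -0.99 without control 1.

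Electron transfer flavoprotein (Etfa with Etfb) takes electrons from the acyl-CoA dehydrogenases, and its dehydrogenase (Etfdh) passes them towards the respiratory chain. The 3 genes had a lower mean in Eldr cKO, with 0 passing the test. Etfa, the alpha subunit, stood at 131, 29.6 and 31.0 FPKM in controls against 90.7, 0 and 25.3 FPKM in Eldr cKO libraries (log2 fold change -1.91, SE 1.25, and -0.04 without Eldr cKO 2). Etfb, the beta subunit, stood at 116, 10.9 and 13.2 FPKM in controls against 137, 0 and 0 FPKM in Eldr cKO libraries (log2 fold change -2.39, SE 1.33, and limma's unadjusted p = 0.0719). With 1 library left out the change of Etfb ran from -4.76 (Eldr cKO 1) to -1.20 (Eldr cKO 2 or 3), and the limma p of Etfb was 0.00198 (Eldr cKO 1), 0.386 (Eldr cKO 2) and 0.417 (Eldr cKO 3). The authors' deposited table gave p = 0.410 for Etfb. Its SD on the log2(FPKM + 1) scale was 4.10 in Eldr cKO, a spread that limma's SE did not use. In control 2 and 3 Etfb rested on 0.77 and 1.53 estimated fragments. Eldr cKO 1 was the highest library for Etfb and both other Eldr cKO libraries were the lowest. Reads of Etfb may be shared with a neighbour: Gm45233, a gene on the same strand (GRCm38 chromosome 7), shares 617 of the 1164 exonic bases of Etfb. Gm45233 stood at 0, 151 and 31.4 FPKM in controls against 0, 0 and 58.8 FPKM in Eldr cKO libraries. It was thus above 0 in 3 of the 4 libraries in which Etfb was low or at 0, and at 0 where Etfb was high. Whether reads were shared between both rows was not tested, and the low values of Etfb rest on few fragments. Summed, both rows gave 116, 162 and 44.5 FPKM in the controls and 137, 0 and 58.8 FPKM in Eldr cKO. The change of the sum was -2.24, little different from that of Etfb alone, with Eldr cKO 2 still at 0. Etfdh, the dehydrogenase that hands the electrons to ubiquinone, stood at 44.8, 8.73 and 0.106 FPKM in controls against 38.7, 2.56 and 0.589 FPKM in Eldr cKO libraries (log2 fold change -0.38, SE 1.36). It was under 1 FPKM in control 3 and Eldr cKO 3, and the change turned to 0.89 without control 1, to 0.59 without Eldr cKO 3 and to 0.0079 without Eldr cKO 2.

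The pyruvate dehydrogenase complex turns pyruvate into acetyl-CoA, and the 4 members that encode its catalytic subunits had a lower mean in Eldr cKO, 0 of them passing the test. Pdhx, the component that binds Dld into the complex and is no member of the set, stood at 17.4, 0 and 2.69 FPKM in controls against 12.4, 41.0 and 0 FPKM in Eldr cKO libraries (log2 fold change 1.02, SE 1.37, and from -0.16 to 2.54 with 1 library left out). Pdha1, the E1 alpha subunit encoded on chromosome X, stood at 206, 39.8 and 34.3 FPKM in controls against 132, 35.8 and 28.8 FPKM in Eldr cKO libraries (log2 fold change -0.34, SE 1.16). Control 1 and Eldr cKO 1 were high and the other 4 libraries lay close together, and the change turned to 0.47 without control 1 and to 0.066 without Eldr cKO 3. Dld, the dehydrogenase subunit shared with the 2-oxoglutarate complex, stood at 88.9, 36.7 and 37.5 FPKM in controls against 39.3, 5.19 and 24.1 FPKM in Eldr cKO libraries (log2 fold change -1.46, SE 1.23). Eldr cKO 1, the highest of its group, lay just above control 2 and 3. Pdhb, the E1 beta subunit, stood at 67.2, 18.4 and 10.8 FPKM in controls against 49.9, 8.19 and 4.61 FPKM in Eldr cKO libraries (log2 fold change -0.86, SE 1.29). Dlat, the acetyltransferase core, was above 0 in 3 libraries, at 26.5 and 2.25 FPKM in control 1 and 3 and at 10.5 FPKM in Eldr cKO 1.

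**Figure D3:**
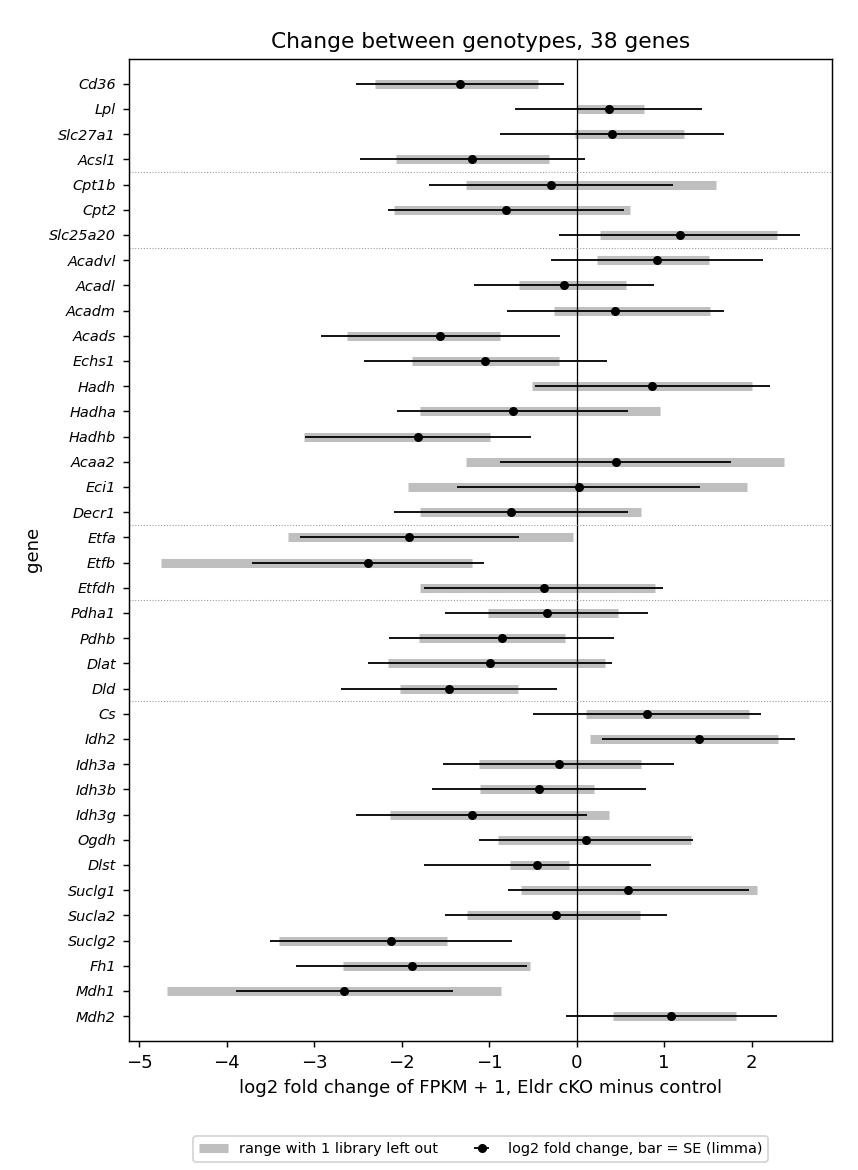
Points are log2 fold changes of FPKM + 1 (horizontal axis, Eldr cKO minus control) of the 38 genes (vertical axis, grouped by role), thin bars are limma SEs, and grey bars span the 6 fits with 1 library left out. The changes run from -2.65 (Mdh1) to 1.40 (Idh2), and 20 grey bars cross 0.

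Within the TCA cycle 5 of 13 genes had a higher and 8 a lower mean in Eldr cKO, with 0 passing the test. Idh2, the mitochondrial NADP-dependent isocitrate dehydrogenase (GRCm38 chromosome 7, 80094846 to 80115392), stood at 192, 8.90 and 88.1 FPKM in controls against 203, 147 and 102 FPKM in Eldr cKO libraries. The 3 Eldr cKO values lay above 2 of the controls, with control 1 among them. The log2 fold change was 1.40 (SE 1.10) and 0.15 without control 2, the library that set the low end. In control 2 Idh2 rested on 1.26 estimated fragments. The NAD-dependent isocitrate dehydrogenase has 3 subunits. Idh3a stood at 48.7, 4.98 and 7.16 FPKM in controls against 40.04, 3.78 and 7.07 FPKM in Eldr cKO libraries. Libraries of the same replicate number were thus close, but outside control 1 and Eldr cKO 1 Idh3a rested on at most 2.41 estimated fragments. Idh3b ranged from 11.2 to 78.2 FPKM and Idh3g from 0 to 51.2 FPKM, with log2 fold changes of -0.43 (SE 1.22) and -1.20 (SE 1.32).

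Ogdh, the dehydrogenase subunit of the 2-oxoglutarate complex, stood at 175, 25.1 and 7.35 FPKM in controls against 127, 7.04 and 45.8 FPKM in Eldr cKO libraries (log2 fold change 0.11, SE 1.22). Its direction changed with the library left out, from -0.90 without control 3 to 1.30 without control 1, with -0.80 when Eldr cKO 1, -0.079 when control 2 and -0.076 when Eldr cKO 3 was left out. Dlst, its succinyltransferase, was above 9 FPKM in each library, at 29.7, 12.5 and 14.6 FPKM in controls against 20.2, 10.7 and 9.21 FPKM in Eldr cKO libraries (log2 fold change -0.45, SE 1.30). Cs, citrate synthase, which opens the cycle, stood at 56.0, 3.32 and 4.87 FPKM in controls against 43.3, 12.1 and 12.2 FPKM in Eldr cKO libraries (log2 fold change 0.80, SE 1.31). Control 1 was the highest and both other controls the lowest, with Eldr cKO between them. Succinyl-CoA ligase pairs the alpha subunit Suclg1 with an ATP-forming (Sucla2) or a GTP-forming (Suclg2) beta subunit. Sucla2 stood at 88.4, 24.5 and 4.80 FPKM in controls against 33.9, 35.5 and 5.29 FPKM in Eldr cKO libraries, and Suclg2 at 19.6, 2.74 and 14.4 FPKM against 13.3, 0 and 0 FPKM. Sucla2 was the higher of the pair in 5 of 6 libraries and Suclg2 in control 3. Suclg1 ranged from 0 to 36.5 FPKM. The log2 fold changes were 0.59 (SE 1.38) for Suclg1, -0.24 (SE 1.27) for Sucla2 and -2.12 (SE 1.38) for Suclg2, the last running from -3.40 without Eldr cKO 1 to -1.48 without Eldr cKO 2 or 3. Fh1, fumarase, stood at 53.3, 26.0 and 8.65 FPKM in controls against 18.5, 13.3 and 0 FPKM in Eldr cKO libraries (log2 fold change -1.89, SE 1.32). With 1 library left out the change of Fh1 ran from -2.68 without Eldr cKO 1 to -0.53 without Eldr cKO 3.

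Mdh1 and Mdh2, the cytosolic and mitochondrial malate dehydrogenases that exchange reducing equivalents through the malate-aspartate shuttle, went opposite ways in their means. Mdh1 (GRCm38 chromosome 11, 21556787 to 21572367) stood at 301, 56.2 and 23.6 FPKM in controls against 199, 7.49 and 0 FPKM in Eldr cKO libraries. Mdh2 (GRCm38 chromosome 5, 135778480 to 135790398) stood at 75.7, 9.86 and 23.9 FPKM in controls against 126, 39.0 and 37.95 FPKM in Eldr cKO libraries. The groups overlapped for both genes, Eldr cKO 1 lying above 2 controls for Mdh1 and control 1 lying among the Eldr cKO values for Mdh2. The log2 fold change of Mdh1 was -2.65 (SE 1.24), with an unadjusted p = 0.0318 and an adjusted p of 1.00 in limma, and the authors' deposited table gave p = 0.341. Without 1 library the limma p of Mdh1 was 0.243 (control 1), 0.0777 (control 2), 0.00884 (control 3), 0.00178 (Eldr cKO 1), 0.0660 (Eldr cKO 2) and 0.522 (Eldr cKO 3), and its change ran from -4.69 without Eldr cKO 1 to -0.87 without Eldr cKO 3. The log2 fold change of Mdh2 was 1.08 (SE 1.20). On the log2(FPKM + 1) scale Mdh1 exceeded Mdh2 by 1.98 and 2.40 in control 1 and 2, differed from it by -0.02 in control 3, exceeded it by 0.66 in Eldr cKO 1, and differed from it by -2.23 and -5.28 in Eldr cKO 2 and 3. In Eldr cKO 2 and 3 Mdh1 rested on 0.83 and 0 estimated fragments and Mdh2 on 3.28 and 3.41, so these gaps rest on few fragments. The difference between both genes was not tested, since the pair was chosen after its values were seen.

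**Figure D4:**
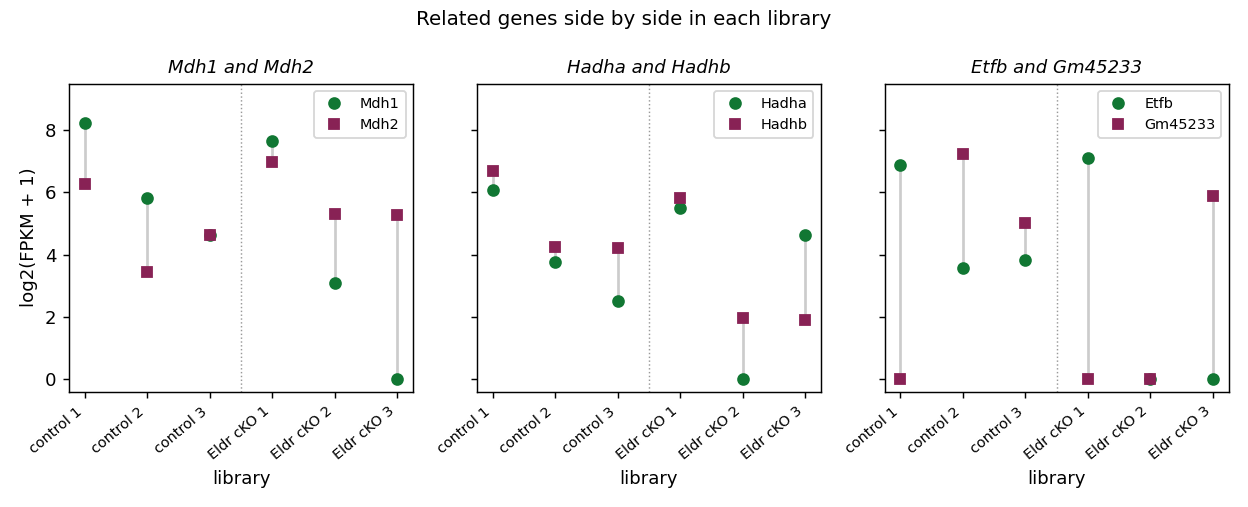
Points give log2(FPKM + 1) (vertical axis) of Mdh1 with Mdh2, of Hadha with Hadhb and of Etfb with the overlapping gene Gm45233 in each library (horizontal axis, controls left of the dotted line). Mdh1 is below Mdh2 in Eldr cKO 2 and 3, where each gene rests on at most 3.41 estimated fragments. Gm45233 is at 0 in control 1 and Eldr cKO 1, where Etfb is at 116 and 137 FPKM.

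As lists, both groups of members leaned to lower means in Eldr cKO. The lean varied with the library left out, and both medians were above 0 only without control 1. Of the 21 fatty acid genes 8 were higher and 13 lower (Eci1, at 0.02, turned to -0.057 after rescaling to nuclear rows), and of the 17 pyruvate dehydrogenase and TCA genes 5 were higher and 12 lower, against 45.5% higher among all genes tested. The median log2 fold change was -0.38 for the fatty acid genes and -0.43 for the pyruvate dehydrogenase and TCA genes, beside -0.13 for all genes tested. With 1 library left out the medians of all genes moved as well. Without control 1 the medians were 0.56 and 0.32, beside 0.092 for all genes, and without Eldr cKO 2 they were 0.017 and -0.085, beside 0.129. Without control 2 they were -0.71 and -0.70, beside -0.465, and without control 3 -1.24 and -0.90, beside 0.041. Without Eldr cKO 1 they were -1.79 and -1.10, beside -0.767, and without Eldr cKO 3 -0.94 and -0.21, beside 0.008. Of the 38 members 18 kept the sign of their change in each of the 6 fits with 1 library left out, which is 48.6% of the 37 members tested in each such fit, and 46.8% of all such genes did so.

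The order of the members by level was similar in control 1 and Eldr cKO 1. Across the 38 genes, which are not independent replicates and share the depth of their libraries, the Spearman correlation of log2(FPKM + 1) was 0.87 between control 1 and Eldr cKO 1. It ranged from 0.45 to 0.72 over the 6 pairs within a genotype and from 0.47 to 0.87 over the 9 pairs between genotypes.

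Other genes of the pathways, taken from a list of 70 fatty acid genes, of which 62 had a row and 49 were tested, split into 19 higher and 30 lower with 0 passing the test. Fabp3, the fatty acid binding protein of heart muscle, was the most abundant, at 1510, 304 and 168 FPKM in controls against 935, 387 and 494 FPKM in Eldr cKO libraries. It lay above Acadl in each library, with its lowest value in control 3. Next by mean level came Acot13, an acyl-CoA thioesterase (20.7 to 296 FPKM in the controls and 25.7 to 79.0 FPKM in Eldr cKO), Oxct1 and Acat1, enzymes of ketone body use, and Fabp4, the binding protein of fat and endothelium. The smallest unadjusted p in limma belonged to Acot2 (0.0508), a mitochondrial thioesterase at 8.42, 0 and 26.1 FPKM in controls that was listed at 0 throughout Eldr cKO. Esrra, the estrogen-related receptor alpha known as a regulator of genes of this kind, stood at 2.11, 0 and 0 FPKM in controls against 14.7, 15.1 and 0 FPKM in Eldr cKO libraries (log2 fold change 2.12, SE 1.39). In Eldr cKO 2, 1 fragment on a transcript of 2 kb corresponded to 9.55 FPKM, so its value there may rest on very few fragments. Dbi, an acyl-CoA binding protein (-1.94, SE 1.38), Fabp4 (-1.88, SE 1.27) and Gpihbp1, which anchors lipoprotein lipase to capillaries (1.94, SE 1.38), followed.

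Of 49 further genes, listed under pyruvate and TCA metabolism in a broad sense, 44 had a row and 39 were tested. Of these 20 were higher and 19 lower, with 0 passing the test. Sdha, the flavoprotein of succinate dehydrogenase, was listed at 111, 16.2 and 43.4 FPKM against 111, 40.5 and 42.3 FPKM, so that the groups overlapped and control 2 was the lowest library. Got1, Slc25a3 and Sdhb stood below it by mean level. Sdhaf1, an assembly factor of succinate dehydrogenase, had an unadjusted p = 0.0462 in limma. It stood at 1.80, 0 and 0 FPKM in controls against 11.4, 7.72 and 7.32 FPKM in Eldr cKO libraries. In Eldr cKO 2 and 3, 1 fragment on a transcript of 2 kb corresponded to 9.55 and 8.93 FPKM, so these values of Sdhaf1 may rest on very few fragments. The groups did not overlap for 2 genes of this list, against 3.94% of all genes tested: Sdhaf1 and Mpc1. Mpc1, a subunit of the mitochondrial pyruvate carrier named after its values were seen, stood at 52.7, 51.7 and 38.3 FPKM in controls against 34.0, 12.3 and 25.1 FPKM in Eldr cKO libraries (log2 fold change -1.06, SE 1.22). Slc25a11, the 2-oxoglutarate carrier of the malate-aspartate shuttle, stood at 32.2, 0 and 7.29 FPKM in controls against 38.7, 18.1 and 49.8 FPKM in Eldr cKO libraries (log2 fold change 2.38, SE 1.31). Glo1 (-2.33, SE 1.38), Idh1, the cytosolic isocitrate dehydrogenase (-2.22, SE 1.38), and Glud1, glutamate dehydrogenase (-2.21, SE 1.37), were listed at 0 in Eldr cKO 2 and 3. Glo1 was at 0 in control 2 too, and its highest value was 89.4 FPKM in control 3.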

How the data were processed

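FPKM values were made by the authors and used as deposited. The tools cutadapt, HISAT2 2.0.5 and StringTie are named in the submitters' processing notes, which give hg19, a human build, although the deposited gene IDs are those of mouse. Positions of 37 of the 38 members lay within 1 bp of GENCODE M21 on GRCm38, the build given here (Eci1 did not). The deposited group columns were means of log2(FPKM + 1), from which the authors' deposited log2 fold change and ratio (fold change) followed, and the deposited p-values and q-values are the authors' own. A row of the table and a gene that the naming rule selects are not reported here. Promoter windows of some genes were not used here. Whether counting used strand is not stated, so opposite-strand overlaps are uncertain.

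Depth was estimated as the most frequent inverse of FPKM times length over genes with 1 annotated transcript. Of low values in these genes, 24.7% to 49.7% lay within 3% of whole fragments, so counts were not recovered and no count model was used. Intervals for counting error were therefore not given.

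The two-sided test of genotype used limma 3.58.1 (R 4.3.3) on log2(FPKM + 1), for rows averaging 1 FPKM or more, and let the variance follow a trend with level. The prior degrees of freedom were infinite, so each SE and p came from the variance trend and not from the gene's own spread. The script was tested on simulated data. Tables were handled in Python 3.11.15. Values in each library were given for the 3 members with the highest mean FPKM per role and for members with an unadjusted p under 0.05, and up to 5 other pathway genes were named by mean and by p. Of the other pathway genes, Pdhx and Mpc1 were named outside this rule. The remaining members with values, Gm45233, the gene pairs and the repeat-rich regions were chosen after values were seen. The members and lists were chosen with earlier results of these data known. Alternatives were pseudocounts of 0.1 and 0.5, no filter, a minimum of 5 FPKM, quantile normalization, rescaling to nuclear rows, robust variance, no trend, array weights, each library left out, the replicate block and, chosen after seeing the data, Etfb summed with Gm45233.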

Additional observations from a re-analysis of the deposited data

How the results depend on the processing

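No member was called in any alternative. The count of called genes moved from 0 to 6 with array weights (Atp5k, Atpif1, Gm10800, Gm21738, Ndufa1 and mt-Atp6) and ran from 0 to 4 with 1 library left out. The count of members with an unadjusted p under 0.05 (1, Mdh1) was 3 and 2 with pseudocounts of 0.1 and 0.5, 0 after quantile normalization, 6 with array weights, and 0 to 5 with 1 library left out; without control 1 the member was Idh2. With 1 library left out, the medians ran from -1.79 to 0.56 (fatty acid) and from -1.10 to 0.32 (pyruvate dehydrogenase and TCA), and the differences in share of nuclear FPKM from -0.440 to 0.203 and from -0.314 to 0.193 percentage points, against -0.143 and -0.107 with all libraries. With array weights the medians were -1.34 and -0.99, and with a pseudocount of 0.1 that of the fatty acid members was -0.14. The median of all genes shifted by 0.138 after quantile normalization, -0.138 with a pseudocount of 0.1, -0.399 with array weights and, with 1 library left out, by -0.638 (Eldr cKO 1) to 0.253 (Eldr cKO 2). Among the members, directions turned with array weights for Slc27a1 (-0.56), Acadm (-0.053), Acaa2 (-1.34), Eci1 (-1.73), Ogdh (-0.56) and Suclg1 (-0.39), with a pseudocount of 0.1 for Cpt1b (0.55) and after rescaling for Eci1 (-0.057). The cause was not tested. With 1 library left out, 20 members took both signs: Acaa2 (-1.26 to 2.37), Acadl (-0.66 to 0.56), Acadm (-0.26 to 1.53), Cpt1b (-1.26 to 1.59), Cpt2 (-2.09 to 0.60), Decr1 (-1.79 to 0.73), Dlat (-2.16 to 0.32), Eci1 (-1.92 to 1.94), Etfdh (-1.80 to 0.89), Hadh (-0.52 to 2.004), Hadha (-1.79 to 0.95), Idh3a (-1.11 to 0.74), Idh3b (-1.10 to 0.20), Idh3g (-2.13 to 0.37), Lpl (-0.00095 to 0.76), Ogdh (-0.90 to 1.30), Pdha1 (-1.01 to 0.47), Slc27a1 (-0.016 to 1.23), Sucla2 (-1.25 to 0.72) and Suclg1 (-0.64 to 2.06). With the replicate block, 0 genes were called, 1 member had an unadjusted p under 0.05 and the medians were -0.38 and -0.43. Deviations from the group means correlated at 0.284, 0.152 and 0.0954 between libraries of the same number. Each library correlated best with its own number, a hint from the data and not from the design. Control 1 and Eldr cKO 1 were also the deepest of their groups, and the part of depth was not tested. Deviations within a group sum to 0, so these correlations are not independent of each other. Depth limits most members outside control 1 and Eldr cKO 1.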
